A study of Homo sapiens with 8 samples.

Results

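The cells studied here are of the established human embryonic stem cell line HUES64 and carry a knockout of DNMT3A together with one of DNMT3B. CpG methylation was read by RRBS, reduced representation bisulfite sequencing, in which CpG-rich fragments of the genome are sequenced after a treatment that converts unmethylated cytosines. The 8 libraries came from passages 6, 7, 8, 11, 13, 17, 27 and 28, with 1 library per passage, and all share the cell line and the genotype. Whether 1 culture or clone was sampled at successive passages is not stated in the labels, and no unedited HUES64 cells were analysed here. Passages 27 and 28 are called late below and passages 6 to 8 early.

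SCAP, RGS12, ZNF497 and SIK1 are 4 genes that were chosen by the fall in methylation, between early and late passages, of a single 1000-base tile inside each of them, called the index tile. In genome build hg19 they lie at chr3:47455184-47517445 (SCAP), chr4:3294755-3441640 (RGS12), chr19:58865723-58874214 (ZNF497) and chr21:44834395-44847002 (SIK1). RGS12 is on the plus strand and the others are on the minus strand. Among 22626 autosomal tiles with at least 3 CpGs of 10 or more reads in every library, the index tile of SCAP ranked 1, that of SIK1 ranked 3, that of ZNF497 ranked 4 and that of RGS12 ranked 5. The tile of rank 2, chr6:168613001-168614000, is in none of these genes. The last tile inside this limit, in RGS12, had fallen by 86.0 points, and the first one outside it, chr11:1276001-1277000, by 84.8 points. These falls chose the genes, so the index tiles are described with no test. In all, 72 of the 174471 autosomal tiles with at least 20 reads in every library lay in the genes. They were 13 of the 63 tiles that SCAP spans, 45 of the 148 of RGS12, 5 of the 10 of ZNF497 and 9 of the 14 of SIK1. The exons and introns of hg19 were not used here, so a tile is placed only by its distance from the gene start.

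DNMT3A and DNMT3B set methylation on CpGs that have none, while DNMT1 copies the marks of the old strand onto the new one after replication. Human gene bodies are typically methylated, and promoters in CpG islands are typically not. SCAP escorts the transcription factors of the SREBP family from the endoplasmic reticulum to the Golgi, where they are cut and released. RGS12 speeds up GTP hydrolysis by G-protein alpha subunits and so ends their signal. ZNF497 is a zinc finger protein. SIK1, a salt-inducible kinase, phosphorylates the CRTC coactivators of CREB and class IIa histone deacetylases, which keeps them in the cytoplasm.

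Summed over CpGs, the libraries held between 19898423 reads at passage 11 and 44599588 at passage 6, with a median of 6 to 13 reads per listed CpG. Libraries of adjacent passages were farther apart than counting error alone allows, at 1.81 to 2.02 for the chi-square per CpG, averaged over CpGs, in all adjacent pairs but passages 17 and 27, where it was 5.64. Passages 27 and 28 were thus not copies of each other, with a mean chi-square of 1.93. A level below is the methylated share of the reads of a tile, summed over the CpGs listed in every library. A level between 0 and 100% cannot tell fewer methylated cells from less methylation in each cell. Intervals are 95% Wilson intervals and cover counting error only, since it is not known whether duplicate reads were removed.

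In all 4 genes the 1 promoter that could be placed was nearly unmethylated, at 5.79% or less in each library. These promoters thus had almost nothing to lose, and the losses described below lie outside them. Other promoters that RefSeq lists for these genes were not placed, so their levels are not known. The sequences below, from RefSeq on GRCh38.p14, run 5′ to 3′ from 250 bases before to 50 bases after the gene start. They are shown because they are the CpG-dense counterpart to the gene-body tiles. CpGs in capitals are those that every library listed. Of 8 promoters that RefSeq lists for the 4 genes, 4 could be placed on the hg19 positions, 1 per gene, by the spacing of their CpGs.
SCAP: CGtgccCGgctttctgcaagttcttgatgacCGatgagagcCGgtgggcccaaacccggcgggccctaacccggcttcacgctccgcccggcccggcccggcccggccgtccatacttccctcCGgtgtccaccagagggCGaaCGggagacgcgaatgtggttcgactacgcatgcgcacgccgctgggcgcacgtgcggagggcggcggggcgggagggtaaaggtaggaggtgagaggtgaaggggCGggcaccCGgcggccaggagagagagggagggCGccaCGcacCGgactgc
RGS12: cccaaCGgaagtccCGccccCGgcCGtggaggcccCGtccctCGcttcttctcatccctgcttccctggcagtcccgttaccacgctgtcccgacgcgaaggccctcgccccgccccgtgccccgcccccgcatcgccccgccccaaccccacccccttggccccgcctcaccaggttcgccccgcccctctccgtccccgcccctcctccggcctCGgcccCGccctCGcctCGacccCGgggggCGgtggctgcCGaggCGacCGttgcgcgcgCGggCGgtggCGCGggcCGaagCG
ZNF497: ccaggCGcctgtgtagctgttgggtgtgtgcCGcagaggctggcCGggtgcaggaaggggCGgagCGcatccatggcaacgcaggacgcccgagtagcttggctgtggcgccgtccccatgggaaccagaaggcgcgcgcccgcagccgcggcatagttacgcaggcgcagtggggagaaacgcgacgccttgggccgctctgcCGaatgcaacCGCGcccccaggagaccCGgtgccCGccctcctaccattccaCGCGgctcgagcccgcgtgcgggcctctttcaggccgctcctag
SIK1: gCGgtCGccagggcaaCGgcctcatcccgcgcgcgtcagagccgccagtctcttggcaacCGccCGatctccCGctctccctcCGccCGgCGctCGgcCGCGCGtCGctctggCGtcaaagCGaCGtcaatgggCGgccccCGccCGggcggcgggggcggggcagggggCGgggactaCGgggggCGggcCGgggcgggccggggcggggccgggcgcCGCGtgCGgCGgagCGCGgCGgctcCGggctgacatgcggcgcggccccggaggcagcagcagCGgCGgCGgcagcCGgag

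In the SCAP promoter, all 13 CpG positions listed in the window matched a CpG of the sequence, against 5 for the next best placement. The matches were 25 of 25 for RGS12, 12 of 12 for ZNF497 and 42 of 42 for SIK1, and the next best placements had 6, 5 and 6. The sequences hold 36 CpGs for SCAP, 42 for RGS12, 34 for ZNF497 and 53 for SIK1. Among 33725 autosomal promoters of the same length the median was 14 CpGs. Only 0.617% of them had as many CpGs as that of SIK1 or more, and the share was 5.93% for that of RGS12, 12.9% for that of SCAP and 15.8% for that of ZNF497. In the SIK1 promoter 5 of 686 late reads were methylated, 0.729% (interval 0.312 to 1.69%), against 1.90% of the early reads. The SCAP promoter stood at 3.06% in the late libraries (9 of 294 reads, interval 1.62 to 5.71%) and at 3.47% in the early ones. No late read was methylated in the RGS12 promoter, where 355 reads bound the level at 1.07%, against 0.375% of early reads. In the ZNF497 promoter neither the 315 late reads, with a bound of 1.2%, nor the 529 early reads held a methylated one. The tile over the gene start gave the same picture in SIK1, at 0.166% in late and 0.213% ± 0.210 (SD, n = 3) in early libraries, and in RGS12, at 0.364% and 0.203% ± 0.0437 (SD, n = 3). The gene start tile of SCAP stood at 5.30% in late and 6.37% ± 0.873 (SD, n = 3) in early libraries, and that of ZNF497 at 13.6% and 18.5% ± 1.99 (SD, n = 3). None of these 4 tiles passed the test for a change with passage that is described below.

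Each index tile was mostly methylated up to passage 17 and almost unmethylated at passages 27 and 28. The SIK1 index tile, chr21:44841001-44842000, lies 5502 bases into the gene, 43.6% of the way along it. Its 20 CpGs stood at 92.6, 93.6, 91.4, 89.8, 90.6 and 86.6% at passages 6, 7, 8, 11, 13 and 17, and at 3.91 and 1.34% at passages 27 and 28. The late mean was thus 2.63% and the early mean 92.5% ± 1.09 (SD, n = 3), and 13 of 529 late reads were methylated (2.46%, interval 1.44 to 4.16%). The first 6 libraries stayed within a narrow band, and neither late library came near it.

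The RGS12 index tile, chr4:3412001-3413000, lies 117745 bases from the gene start, 80.2% of the way along the gene. Its 7 CpGs stood at 82.8, 84.8, 81.1, 69.2, 80.2 and 62.1% at passages 6, 7, 8, 11, 13 and 17, and at 2.22 and 6.38% at passages 27 and 28. The late mean was 4.30% and the early mean 82.9% ± 1.90 (SD, n = 3), with 8 of 184 late reads methylated (4.35%, interval 2.22 to 8.34%). Passages 11 and 17 were already lower than the early libraries here, while passage 13 was close to them.

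The SCAP index tile, chr3:47459001-47460000, lies near the far end of its gene, 57945 bases from the start and 93.1% of the way along. Its 29 CpGs stood at 78.8, 76.0, 75.5, 70.7, 75.5 and 62.3% at passages 6, 7, 8, 11, 13 and 17, and at 9.49 and 11.4% at passages 27 and 28. The late mean was 10.5% and the early mean 76.8% ± 1.78 (SD, n = 3), with 95 of 904 late reads methylated (10.5%, interval 8.67 to 12.7%). Of the 4 index tiles it had the highest late level, and passage 17 was its lowest library before passage 27.

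The ZNF497 index tile, chr19:58868001-58869000, lies 5714 bases from the start, 67.3% of the way along the gene. Its 36 CpGs stood at 67.3, 78.2, 65.0, 68.0, 62.2 and 64.5% at passages 6, 7, 8, 11, 13 and 17, and at 5.77 and 2.11% at passages 27 and 28. The late mean was 3.94% and the early mean 70.2% ± 7.04 (SD, n = 3), with 40 of 994 late reads methylated (4.02%, interval 2.97 to 5.43%). Passage 17 was within 1 SD of the early mean, and only the late libraries lay far below it.

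**Figure D1:**
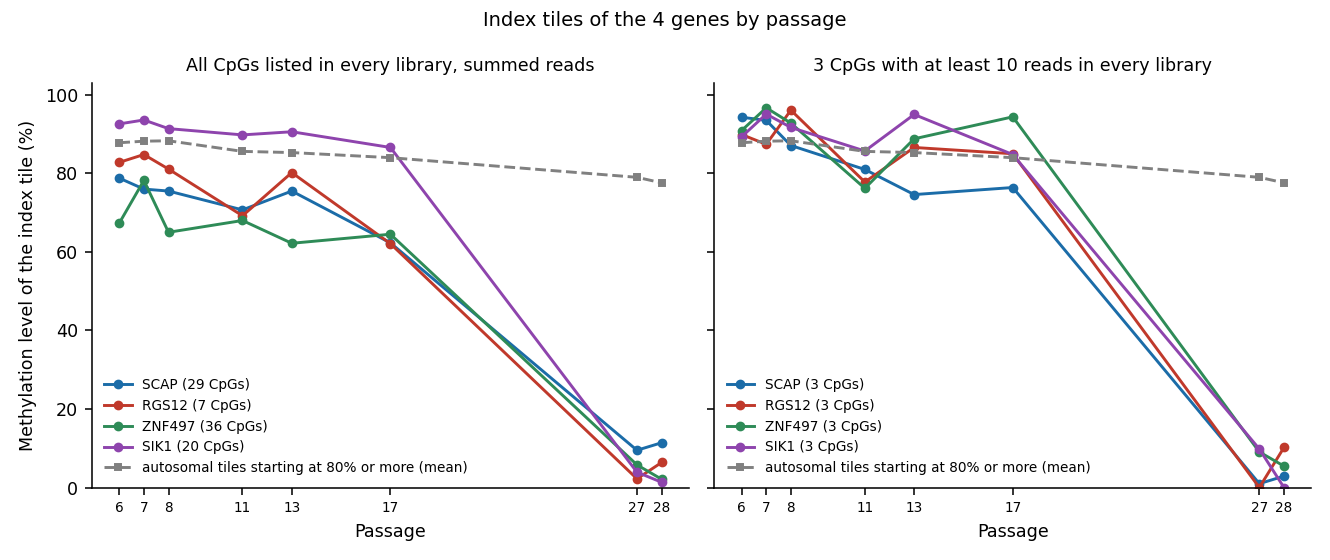
Methylation level (%) of the 4 index tiles against passage, over all CpGs listed in every library (left) and over the 3 best covered CpGs that ranked the tiles (right), with the mean of all autosomal tiles that started at 80% or more as a dashed line. All 4 genes lie at 62.1% or more up to passage 17 on the left and at 11.4% or less at passages 27 and 28, while the dashed mean was 78.3% late and 88.1% early.

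The fall that had taken place by passage 17, as a share of the whole early to late fall, was 6.60% in SIK1, 8.55% in ZNF497, 21.9% in SCAP and 26.4% in RGS12. For the 4570 autosomal tiles that fell by 50 points or more, the median share was 33.0% (interquartile range 15.6 to 53.4%). No library between passages 17 and 27 was analysed here, so the course over those passages is not known. The order of the index tiles depended on the CpGs read. On the 3 best covered CpGs the late and early means were 1.94% and 91.6% ± 3.92 in SCAP, 4.90% and 92.0% ± 2.92 in SIK1, 7.26% and 93.4% ± 2.95 in ZNF497, and 5.09% and 91.1% ± 4.47 in RGS12 (SD, n = 3 early libraries). On those 3 CpGs the share of the fall reached by passage 17 was 17.0% in SCAP, 8.26% in SIK1 and 7.09% in RGS12. It was -1.16% in ZNF497, where passage 17 lay above the early mean, so the order of these shares changed too. With all CpGs of every library, the SIK1 tile ranked 6 among 174471 tiles, that of RGS12 107, that of SCAP 754 and that of ZNF497 760.

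Single CpGs of the index tiles showed where the loss was uniform and where it had an edge. CpGs with at least 10 pooled reads in both the late and the early libraries were read. In SIK1 all 20 such CpGs were under 10% in the late libraries, the highest at 8.00%, and their early levels ran from 77.4 to 100%. In RGS12 all 7 ended at 10% or less, with 6 of them under 10%, and started at 72.7 to 95.5%. These 2 tiles held no CpG that kept its methylation.

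The SCAP index tile held an edge. Its 4 CpGs at chr3:47459050-47459071 together stood at 95.5, 85.7, 87.5, 95.3, 97.0 and 91.5% at passages 6, 7, 8, 11, 13 and 17, and at 91.3 and 75% at passages 27 and 28. Pooled, they were at 80.3% in 71 late reads (interval 69.6 to 87.9%) and at 91.9% in 111 early reads. The next CpG lies 107 bases on, and from it to the end of the tile, chr3:47459178-47459987, 22 CpGs stood at 76.3, 74.8, 75.2, 66.1, 72.5 and 56.6% up to passage 17, and at 3.53 and 3.82% at passages 27 and 28. Pooled, these were at 3.68% in 816 late reads (interval 2.59 to 5.20%) and at 75.6% in 1117 early reads. The 2 stretches of SCAP were thus far apart at passages 27 and 28, on either side of the gap. The first CpGs after the gap kept more than the rest, up to 23.5% late at chr3:47459188. From chr3:47459285 to the end of the tile none was above 6.06% late. The tile just below it, chr3:47458001-47459000, stood at 85.0% in late and 90.3% ± 5.15 (SD, n = 3) in early libraries and did not pass the test (adjusted p = 0.0993, quasi-binomial fit with limma's moderated dispersion).

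The ZNF497 index tile was divided in another way, since part of it was unmethylated from the start. Its CpGs at chr19:58868107-58868423 stood at 89.9, 90.5, 89.8, 76.2, 78.5 and 89.6% at passages 6, 7, 8, 11, 13 and 17, and at 7.04 and 2.56% at passages 27 and 28. That stretch had 4.86% in 802 late reads (interval 3.58 to 6.58%) and 90% in 834 early reads. After a gap of 285 bases, 8 CpGs at chr19:58868708-58868791 stood at 0.61% in 164 late and 1.95% in 256 early reads. The intermediate level of the whole tile in early libraries is thus the sum of a methylated and an unmethylated stretch. Of the 33 CpGs read in the tile, 29 were under 10% in late and 8 in early libraries.

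**Figure D2:**
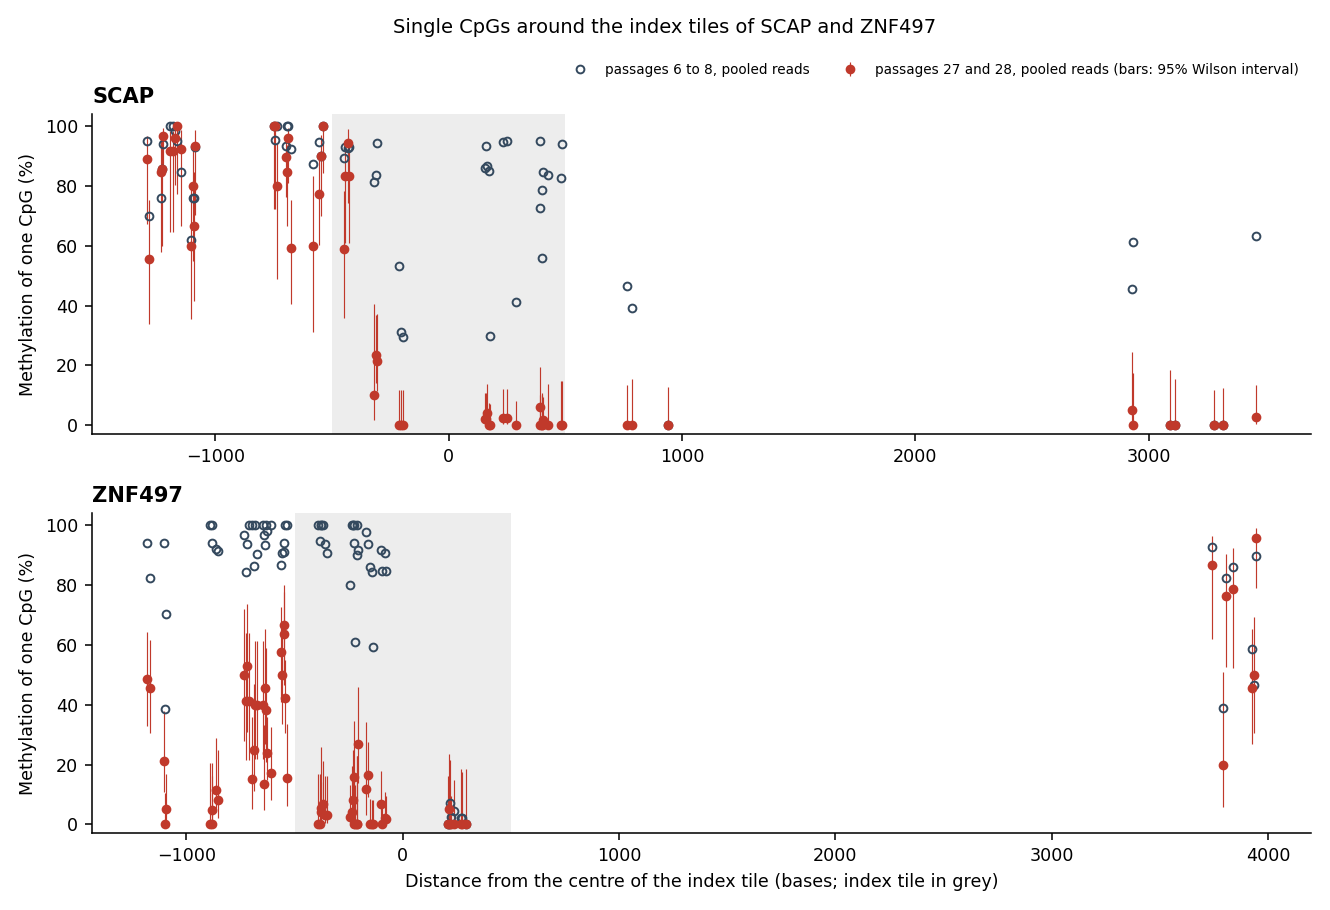
Methylation (%) of single CpGs against distance in bases from the centre of the index tile (grey) in SCAP and ZNF497, from pooled reads of passages 27 and 28 (filled, bars are 95% Wilson intervals) and of passages 6 to 8 (open). In SCAP the filled points pool to 80.3% before a gap of 107 bases and to 3.68% after it, with the first CpGs after the gap at up to 23.5%. In ZNF497 the filled points are low in the stretch of the tile that started methylated. In the tile beside it, at lower coordinates, they are mixed and run from 0 to 66.7%.

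By the rule given next, loss reached beyond the index tile in all 4 genes, over very different lengths. Reading outward, a stretch of loss was taken to end at the first measured tile that fell by less than 20 points from the early to the late mean. These lengths use the contrast that chose the genes and carry no test. In SIK1 the stretch held 6 adjoining tiles, chr21:44836001-44842000, all measured. In RGS12 it held 5 measured tiles in 10000 bases, chr4:3412001-3422000. In SCAP it held 3 in 4000 bases, chr3:47459001-47463000, and in ZNF497 2 in 2000 bases, chr19:58867001-58869000. The SCAP tiles beyond the index tile started at 34.2 and 30.3% and changed by -25.2 and -29.0 points. Autosomal tiles that started at 20 to 40% changed by a median of -19.6 points, so falls of such size were common at that start. The RGS12 stretch held tiles of that start too. SCAP and ZNF497 were bounded on both sides by tiles that were still methylated. In SCAP these stood at 85.0% late and 90.3% early on the lower side and, at chr3:47467001-47468000, at 71.8% late and 80.6% early on the upper side. In ZNF497 they stood at 55.2% late and 69.6% early on the lower side, outside the gene, and at 66.2% late and 73.8% early on the upper side. The lower one, chr19:58864001-58865000, was mixed. Its CpGs at 58864810-58864821 kept 77.8 to 91.3% late. Nearer the stretch, 58864846 fell from 65.2 to 17.1% and 58864922 from 51.4 to 7.69%. The next measured tiles beyond it fell by 34.1 and 66.9 points.

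In RGS12 and SIK1, by contrast, the stretch ended on both sides at tiles that had started under 20%. The tiles that ended it in RGS12 stood at 0% late and early on the lower side, and at 0.794% late and 13.9% early on the upper side. The lower one is parted from the index tile by tiles that were not measured. At a minimum of 10 reads per tile the RGS12 stretch held 9 measured tiles in 20000 bases, chr4:3403001-3423000. In SIK1 the upper side ended on a tile at 0% throughout, and the lower side on a tile at 26.8% late and 17.7% ± 5.19 (SD, n = 3) early. When tiles starting under 20% were passed over, a choice made after seeing these ends, the stretch grew to 27 tiles in RGS12, chr4:3363001-3452000. In SIK1 it grew to 15 tiles, chr21:44818001-44866000, and no tile ended it inside the gene or its flanks of 20000 bases. With tiles of 500 bases, and none passed over, the stretch was shorter in RGS12, at 3000 bases, and in SCAP, at 1500 bases. With flanks of 500000 bases and low tiles passed over it held 28 tiles over 101000 bases in RGS12 and 25 tiles over 63000 bases in SIK1. The tile that ended it below RGS12's stretch stood at 40.4% late and 47.1% early. The one that ended it above stood at 10.8% late and 25.5% early, and had thus itself lost methylation, by less than 20 points. In SIK1 the tiles that ended it stood at 73.1% late and 90% early below and 35.4% late and 47.3% early above. The same change left SCAP at 3 tiles and ZNF497 at 2. Many tiles inside the RGS12 stretch were not measured, 51 of 89, so its continuity is known only where RRBS has reads.

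**Figure D3:**
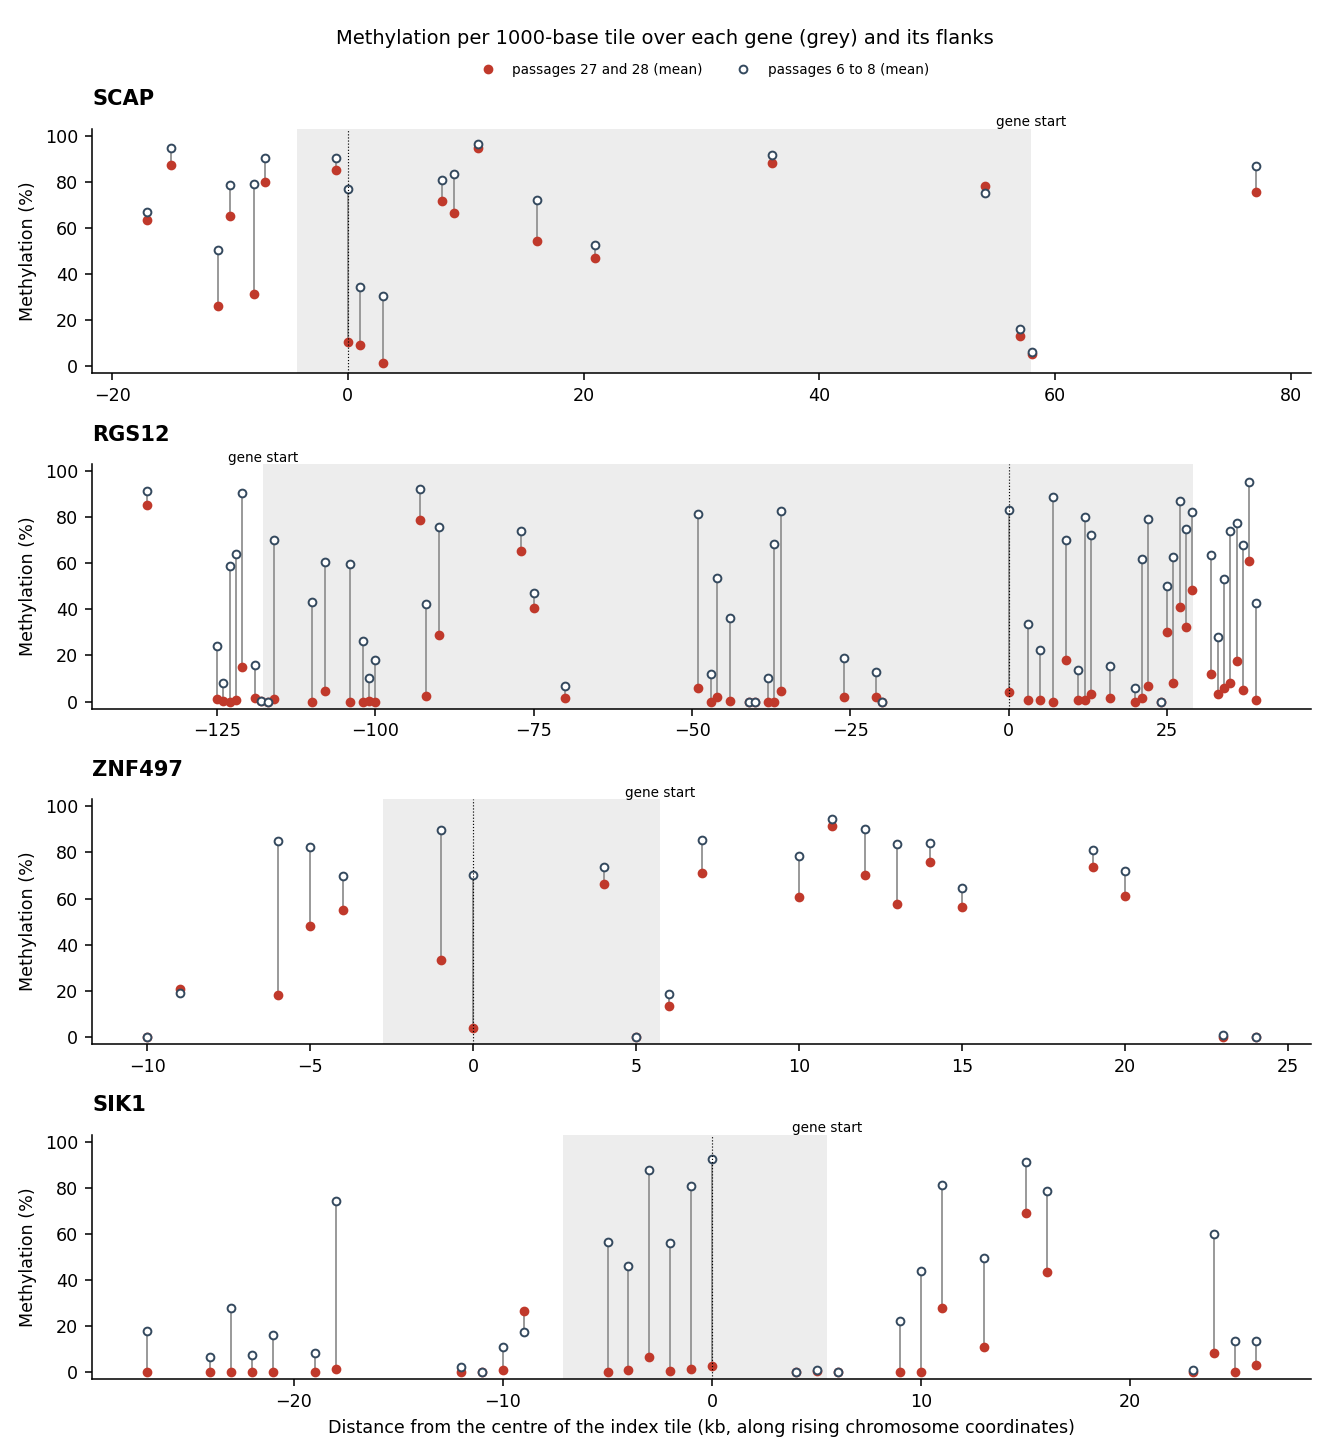
Methylation (%) of every measured tile over each gene (grey band) and 20 kb on both sides, against distance in kb from the centre of the index tile (dotted line), with late means filled and early means open. SIK1 and RGS12 show long downward lines across the gene, while in SCAP 7 of the 10 further tiles that started at 20% or more keep a late mean of 50% or more.

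Tests were made on the tiles that did not choose the genes. Methylated and unmethylated reads of each autosomal tile were regressed on passage, and a tile was called when its adjusted p was under 0.05 and its fitted change from passage 6 to passage 28 was at least 10 points. Falls were called in 41971 of 145267 tested autosomal tiles, 28.9%, and rises in 0.113%. Index tiles left out, falls were called in 32 of 39 tested tiles of RGS12 (44 measured), 5 of 7 of SIK1 (8 measured), 1 of 3 of ZNF497 (4 measured) and 2 of 12 of SCAP. No rise was called in any of them. These tiles were read in the same libraries and over the same passages as the index tiles, and tiles of 1 gene share reads of the same cells, so the counts are a description and are not independent of the choice of the genes. Over passages 6 to 17, which leave the late libraries out, falls were called in 17 of 38 tested tiles of RGS12, 3 of 6 of SIK1, 1 of 12 of SCAP and 0 of 3 of ZNF497, against 8.21% of all tested tiles.

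Every SIK1 tile with an intermediate or high start fell. Its 5 further tiles that started at 20% or more started between 46.3 and 87.7% and ended between 0 and 6.87%, and all 5 were called. The tile with the largest fall, chr21:44838001-44839000 (22 CpGs), stood at 84.7, 90.7, 87.6, 76.5, 67.2 and 71.3% at passages 6, 7, 8, 11, 13 and 17, and at 8.29 and 5.45% at passages 27 and 28. Its fitted change was -81.1 points (adjusted p = 1.03e-08, quasi-binomial fit with limma's moderated dispersion). Passages 11, 13 and 17 already lay below all 3 early libraries in this tile. The tile next to the index tile, chr21:44840001-44841000 (20 CpGs), stood at 79.2, 82.7, 79.9, 72.2, 85.3 and 77.2% at passages 6, 7, 8, 11, 13 and 17, and at 2.82 and 0% at passages 27 and 28. Its fitted change was -80.9 points (adjusted p = 1.88e-06, same fit), and the same fit over passages 6 to 17 gave -2.06 points (adjusted p = 0.863). The other 3 measured tiles, towards the gene start, held less than 1% in both late and early means. In the flanks, falls were called in 14 of 20 tested tiles, and 6 of the 9 that started at 20% or more ended under 20%. Over all autosomal tiles these shares were 28.9% and 10.9%.

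RGS12 lost methylation in most measured tiles along its length. All 28 of its further tiles that started at 20% or more had a lower mean in late than in early libraries. In 26 of them both late libraries lay below all 3 early ones. Of the 28, 19 ended under 10%, 7 between 10 and 50% and 2 at 50% or more. Among all autosomal tiles that started at 20% or more, 6.5% ended under 10%. Its largest called fall, chr4:3419001-3420000 (6 CpGs), stood at 89.9, 91.7, 85.0, 81.2, 89.8 and 87.5% at passages 6, 7, 8, 11, 13 and 17, and at 0% at passages 27 and 28. The fitted change was -93.6 points (adjusted p = 4.01e-07, quasi-binomial fit with limma's moderated dispersion), and over passages 6 to 17 it was -1.91 points (adjusted p = 0.935, same fit). The tile next to the index tile on the upper side, chr4:3415001-3416000 (10 CpGs), took another course, at 44.1, 24.3, 32.6, 23, 10.1 and 4.55% up to passage 17, and at 1.61 and 0% at passages 27 and 28. Its fitted change was -41.0 points (adjusted p = 4.72e-07, same fit), and 88.6% of its fall was there at passage 17. On the lower side the nearest measured tile, chr4:3392001-3393000, was at 0% in all 8 libraries and could not be tested.

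The best kept of the RGS12 tiles that started at 80% or more was chr4:3319001-3320000 (13 CpGs), at 94.0, 87.9, 94.1, 87.4, 85.1 and 87.8% at passages 6, 7, 8, 11, 13 and 17, and at 82.2 and 75.6% at passages 27 and 28. Its fitted change of -13.3 points was called (adjusted p = 0.00688, quasi-binomial fit with limma's moderated dispersion). It was not called without passage 6 (adjusted p = 0.0533) or without passage 28 (adjusted p = 0.0953, same fit), nor with limma on logit levels (adjusted p = 0.0526). The tile at chr4:3322001-3323000, singled out after its values were seen, differed most of the RGS12 tiles between the late libraries, at 7.41% at passage 27 and 50.7% at passage 28. Methylation also fell in the flanks of RGS12, with falls called in 14 of 15 tested tiles and 11 of 13 tiles that started at 20% or more ending under 20%. Over all autosomal tiles these shares were 28.9% and 10.9%. In RefSeq's GRCh38.p14 the next gene beyond the end of RGS12 is HGFAC, which encodes an activator of hepatocyte growth factor.

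In SCAP few of the other tiles were called, and the 2 called tiles inside the gene are both in the stretch around the index tile. The tile at chr3:47462001-47463000 (7 CpGs) stood at 32.8, 28.0, 30.1, 29.5, 10.1 and 8.42% at passages 6, 7, 8, 11, 13 and 17, and at 0 and 2.67% at passages 27 and 28. Its fitted change was -33.0 points (adjusted p = 1.58e-05, quasi-binomial fit with limma's moderated dispersion). The tile beside the index tile, chr3:47460001-47461000 (6 CpGs), stood at 40.4, 18.5, 43.8, 43.5, 21.9 and 21.6% up to passage 17, and at 7.69 and 10.3% at passages 27 and 28. Its fitted change was -30.7 points (adjusted p = 0.00415, same fit), and it was not called over passages 6 to 17, with -15.1 points (adjusted p = 0.553). Both of these tiles started well below the index tile, at 20 to 40%, where falls were called in 61.5% of tested autosomal tiles. The first lay below all 3 early libraries from passage 13 on, while the second varied widely among the early libraries and lay below all of them only at passages 27 and 28. Of the 10 further SCAP tiles that started at 20% or more, 7 ended at 50% or more and 2 under 10%. Among all autosomal tiles of that start, 6.5% ended under 10%. The best kept SCAP tile, chr3:47470001-47471000 (4 CpGs), stood at 95, 97.4, 96.9, 69.2, 76.3 and 85.3% at passages 6, 7, 8, 11, 13 and 17, and at 88.9 and 100% at passages 27 and 28. It dipped at passages 11 and 13 and was not called (adjusted p = 0.845, same fit). In the SCAP flanks falls were called in 2 of 7 tested tiles, and none of the 7, all starting at 20% or more, ended under 20%. Over all autosomal tiles these shares were 28.9% and 10.9%, so the called share was near that of all tiles. Both called flank tiles, singled out after their values were seen, lie beyond the gene end and are parted from the stretch around the index tile by tiles that were not called. The one at chr3:47451001-47452000 (4 CpGs) stood at 78.1, 77.8, 81.5, 72.2, 51.5 and 35% at passages 6, 7, 8, 11, 13 and 17, and at 33.3 and 29.1% at passages 27 and 28. Its fitted change of -50.5 points (adjusted p = 0.000126, same fit) was larger than those of the called tiles inside the gene, and most of its fall was there at passage 17. The one at chr3:47448001-47449000 (7 CpGs) stood at 26.2% late and 50.5% ± 11.7 (SD, n = 3) early, with -26.5 points fitted (adjusted p = 0.00683, same fit).

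ZNF497 has few measured tiles beside its index tile. The one next to it, chr19:58867001-58868000 (31 CpGs), stood at 90.1, 91.6, 87.9, 86.2, 85.8 and 84.7% at passages 6, 7, 8, 11, 13 and 17, and at 46.3 and 20.5% at passages 27 and 28. Its late mean was 33.4% and its early mean 89.9% ± 1.84 (SD, n = 3). The change fitted to it was -62.2 points (adjusted p = 6.26e-08, quasi-binomial fit with limma's moderated dispersion). The late libraries differed from each other here by more than in the index tile, and both lay below every earlier one. Over passages 6 to 17 it changed by -6.44 points (adjusted p = 0.208, same fit). On the upper side chr19:58872001-58873000 (7 CpGs) stood at 66.2% late and 73.8% ± 2.70 (SD, n = 3) early and was not called (adjusted p = 0.532, same fit). Beyond the gene end, in the flank towards the gene that RefSeq's GRCh38.p14 places next, A1BG, the tile at chr19:58862001-58863000, singled out after its values were seen, stood at 18.2% late and 85.1% ± 1.36 (SD, n = 3) early. Its fitted change was -70.1 points (adjusted p = 3.91e-08, same fit). Falls were called in 4 of 13 tested tiles of the flanks, and 1 of the 12 that started at 20% or more ended under 20%. Both are near the shares over all autosomal tiles, 28.9% and 10.9%.

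**Figure D4:**
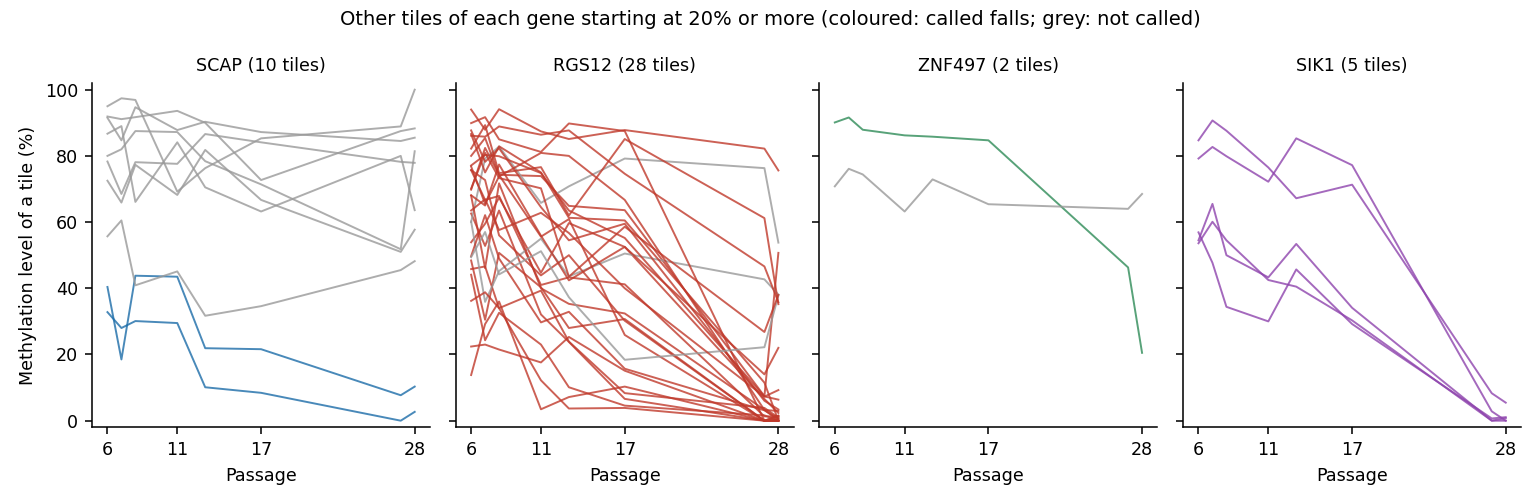
Methylation level (%) by passage of every tile of each gene that started at 20% or more, index tile left out, with called falls in colour and other tiles in grey. All 5 SIK1 tiles and 20 of the 28 RGS12 tiles end under 20%, while 7 of the 10 SCAP tiles end at 50% or more.

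Among tiles that started at 20% or more, 100% ended under 20% in SIK1, 71.4% in RGS12, 20% in SCAP and 0% in ZNF497 (0 of 2), against 10.9% of 131744 autosomal tiles. Of tiles that started at 80% or more, 3 of 6 in RGS12 and 2 of 2 in SIK1 ended under 20%, against 421 of 66696 autosomal tiles (0.631%). None of the 5 such tiles in SCAP did, and 3 of them were still at 80% or more, as were 52.5% of all autosomal tiles of that start. Falls were called in all 6 tested tiles of this start in RGS12, both in SIK1, the 1 in ZNF497 and none of 5 in SCAP, against 22.6% of the 65778 tested autosomal tiles of that start. The median late minus early change over all measured tiles was -50.5 points in SIK1, -29.6 in RGS12, -6.25 in ZNF497 and -5.45 in SCAP, against -5.19 over all autosomal tiles.

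The mean level of each gene, with the index tile left out and equal weight for each tile, fell with passage. These tiles too were read in the libraries that chose the genes, so the p-values of these trends are not independent of that choice. RGS12 (44 tiles) stood at 44.1, 43.0, 42.5, 34.6, 32.0, 28.1, 10.2 and 9.58% at passages 6, 7, 8, 11, 13, 17, 27 and 28. Its slope was -1.60 ± 0.0524 points per passage (n = 8, error is SE; r = -0.997, two-sided exact permutation p = 2.48e-05, adjusted p = 0.000124; rho = -1, exact permutation p = 4.96e-05), the smallest p that 8 libraries allow. Each library was lower than the one of the passage before. With the 2 libraries farthest from the median passage left out, passages 27 and 28, r was -0.982 (n = 6, exact permutation p = 0.00139). With only CpGs of at least 10 reads, which leave 6 tiles, the slope was -0.551 (adjusted exact permutation p = 0.00394, n = 8). The adjusted values cover a family of 10 trends and differences of trends.

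SIK1 (8 tiles) stood at 41.2, 43.6, 38.4, 33.2, 36.5, 30.3, 1.49 and 1.04% at the same passages. Its slope was -1.92 ± 0.183 points per passage (n = 8, error is SE; r = -0.974, exact permutation p = 0.000422, adjusted p = 0.00105; rho = -0.952, exact permutation p = 0.00114), and r was -0.887 without passages 27 and 28 (exact permutation p = 0.0194, n = 6). In that same test, over passages 6 to 17, the SIK1 slope was -1.05 (adjusted exact permutation p = 0.0324, n = 6). Over 4 tiles with CpGs of at least 10 reads the SIK1 slope was -0.589 (adjusted exact permutation p = 0.00972, n = 8). SCAP (12 tiles) stood at 62.4, 59.5, 60.2, 57.9, 55.0, 51.5, 49.3 and 52.9%. Its slope was -0.470 ± 0.101 points per passage (n = 8, error is SE; r = -0.886, exact permutation p = 0.00273, adjusted p = 0.00341; rho = -0.905, exact permutation p = 0.00456). Without passages 27 and 28 its r was -0.981 (exact permutation p = 0.00278, n = 6). Over all autosomal tiles the slope was -0.489 ± 0.0164 (SE, n = 8). The SCAP slope over passages 6 to 17, the same test as without passages 27 and 28, was -0.921 (adjusted exact permutation p = 0.00694, n = 6). That is steeper than over all 8 libraries. With reads pooled over its tiles the SCAP slope was not past the threshold, at -0.296 (adjusted exact permutation p = 0.0907, n = 8).

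ZNF497 (4 tiles) stood at 44.7, 47.1, 44.8, 41.3, 43.6, 42.7, 31.3 and 25.4%. Its slope was -0.820 ± 0.128 points per passage (n = 8, error is SE; r = -0.934, exact permutation p = 0.00201, adjusted p = 0.00287; rho = -0.857, exact permutation p = 0.0107). Without passages 27 and 28 its r was -0.642 (exact permutation p = 0.172, n = 6), so the ZNF497 trend rests on those libraries. It also rests largely on the tile beside the index tile, chr19:58867001-58868000, which changed by -56.5 points from early to late. The next largest change was -7.5 points, at chr19:58872001-58873000.

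Since tiles of different starting level lost different amounts, each gene was also set against all 66696 autosomal tiles that started at 80% or more. The genes were chosen by a fall in these same libraries, so a steeper slope than over all tiles was partly fixed in advance. These differences and their p-values are therefore a description. The 6 such tiles of RGS12 averaged 29.8% late and 85.7% early, and the autosomal tiles 78.3% late and 88.1% early. The RGS12 slope minus the autosomal slope was -2.22 ± 0.284 points per passage (n = 8, error is SE; r = -0.954, exact permutation p = 0.00067, adjusted p = 0.00134; rho = -0.976, exact permutation p = 0.000397). Without passages 27 and 28 its r was -0.804 (exact permutation p = 0.0458, n = 6). That is the same test as the one over passages 6 to 17, where the difference was -0.803 (adjusted exact permutation p = 0.0655, n = 6). For the 1 tile of RGS12 that started at 90% or more, against autosomal tiles of that start, it was -0.244 (adjusted exact permutation p = 0.126, n = 8). Neither passed the threshold.

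The 2 SIK1 tiles of that start averaged 4.14% late and 84.2% early. Both lie in the stretch of loss around the index tile. The difference of slopes was -3.37 ± 0.507 points per passage (n = 8, error is SE; r = -0.938, exact permutation p = 0.00154, adjusted p = 0.00256; rho = -0.857, exact permutation p = 0.0107). Without passages 27 and 28 its r was -0.727 (exact permutation p = 0.0958, n = 6), so it rests on those libraries. The 1 ZNF497 tile, beside the index tile, gave -2.29 ± 0.476 (SE, n = 8; r = -0.891, exact permutation p = 0.00317, adjusted p = 0.00353; rho = -0.762, exact permutation p = 0.0368). That too rests on passages 27 and 28, since r without them was -0.477 (exact permutation p = 0.347, n = 6).

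The 5 SCAP tiles averaged 81.2% late and 88.4% early, and their difference of slopes was 0.113 ± 0.187 points per passage (n = 8, error is SE; r = 0.240, exact permutation p = 0.564, adjusted p = 0.564; rho = -0.0952, exact permutation p = 0.840). The relation was not a line, since the SCAP mean minus the autosomal mean was -8.01 points at passage 17 and 6.15 points at passage 28. Over passages 6 to 17 the sign was the opposite, with -0.808 points per passage (exact permutation p = 0.00139, adjusted p = 0.00463, n = 6). A missed threshold over 8 libraries therefore does not show that SCAP followed the autosomal tiles at every passage.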

How the data were processed

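RRBS of HUES64 cells with DNMT3A and DNMT3B knocked out was analysed in 8 libraries, 1 per passage. Each deposited file lists CpG positions of hg19, per the submitters' processing notes. The authors deposited, in the fourth column, the methylated and total reads of each CpG, which were used. Column 5 holds a score that the authors deposited, which equals 1000 times the methylated share to within 0.5 on each line and was left unused. The sources used here name no aligner or methylation caller and do not say whether duplicates were removed. Positions are printed counted from 1. The genes and the tests were chosen with earlier results of these data known.

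Reads of the 2423167 autosomal CpGs listed in every library were summed per 1000-base tile, and tiles with at least 20 reads in each library were kept. Each tile with at least 10 methylated and 10 unmethylated reads over all libraries was fitted by quasi-binomial logistic regression on passage. The dispersion was moderated by limma's squeezeVar and not allowed under 1. The F test was two-sided, and p-values were adjusted by Benjamini-Hochberg over all tested tiles. With 1 library per passage, p-values measure only how these libraries scatter about a trend, and that scatter may be technical. On simulated data over 145267 tiles of 1 common dispersion, 1.69, the fit recovered 84% of 40-point falls and 14% of 20-point falls. Only a small share of the simulated tiles was given a change, and all of those had intermediate levels. In the real data falls were called in 28.9% of tested tiles, from low to high starts. The recovered shares therefore do not measure how many falls were missed there. Of unchanged simulated tiles, 5.11% had a p under 0.05 and 7 were called. Trends were fitted by least squares, with exact permutation tests over all 40320 orders of the libraries.

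Named tiles are the index tile, the nearest measured tile on each side, the tile over the gene start, the best kept tile that started at 80% or more and the tile with the largest called fall; any other is said to have been singled out later. Genes that work with the members, such as partners of SCAP and SIK1, were not analysed, since no hg19 annotation was used here. Alternatives were other minimums of reads, another tile grid, omission of single libraries, passages 6 to 17 alone, log2 passage, limma on logit levels, other limits on the change, pooled reads and other starting classes. Software was R 4.3.3 with limma 3.58.1 and the package data.table at version 1.17.8, and Python 3.11.15 with numpy 2.4.6, pandas 2.3.3 and SciPy 1.17.1.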

Additional observations from a re-analysis of the deposited data

How the results depend on the processing

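No paired analysis was possible because no passage has a second library. Called falls, index tiles left out, numbered 1 of 6 tested in SCAP with CpGs of at least 5 reads. With 3 CpGs of at least 10 reads per tile they numbered 0 of 1 tested in SCAP, 4 of 5 in RGS12, 0 of 1 in ZNF497 and 1 of 1 in SIK1. At 50 reads per tile they numbered 1 of 5 in SCAP and 16 of 20 in RGS12, and over passages 6 to 17 they numbered 1 of 12 in SCAP, 17 of 38 in RGS12, 0 of 3 in ZNF497 and 3 of 6 in SIK1. Where the fit with limma's moderated dispersion called 0 tiles, an unadjusted p under 0.05 was reached by 0 tiles with CpGs of at least 10 reads in SCAP and ZNF497 and by 1 in ZNF497 over passages 6 to 17. These settings test fewer tiles or fewer libraries. Over all autosomal tiles, falls numbered 11707 of 142650 over passages 6 to 17 and 19378 of 53392 at 50 reads per tile. They numbered 29067 of 81154 (35.8%) with CpGs of at least 5 reads and 5595 of 11743 with CpGs of at least 10 reads.

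The SCAP slope was -0.240 with CpGs of at least 5 reads, -0.359 with CpGs of at least 10 reads and -0.296 with pooled reads, none past the threshold. The ZNF497 slope was -0.0686 with CpGs of at least 10 reads and -0.303 over passages 6 to 17, where the differences from the autosomal slope were -0.808 in SCAP, a reversed sign, -0.803 in RGS12, -0.158 in ZNF497 and -0.637 in SIK1. None of these 4 but that of SCAP passed the threshold, nor did the -0.244 that 1 tile of RGS12 gave against tiles starting at 90% or more. Past the threshold but over 1.5 times smaller were, with CpGs of at least 10 reads, the RGS12 slope, -0.551, its difference, -0.615, and the SIK1 slope, -0.589. So were the SIK1 slope over passages 6 to 17, -1.05, and the ZNF497 difference for a start of 60% or more, -0.987. The SCAP slope was steeper over passages 6 to 17, at -0.921, and with the index tile included the ZNF497 slope was steeper, at -1.3. For want of a tile, some differences had no value, in SCAP, ZNF497 and SIK1 with CpGs of at least 10 reads, in SIK1 with CpGs of at least 5 reads, in ZNF497 on the shifted grid, and in ZNF497 and SIK1 for a start of 90% or more. On omission of single libraries slopes ran from -0.617 to -0.421 in SCAP, -1.62 to -1.57 in RGS12, -0.875 to -0.643 in ZNF497 and -2.0 to -1.8 in SIK1. The differences then ran from -0.144 (without passage 28) to 0.223 in SCAP, -2.55 to -1.91 in RGS12, -2.53 to -1.53 in ZNF497 and -3.60 to -3.06 in SIK1. The causes were not tested.

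The stretch of loss held 1 tile in SCAP and in RGS12 when ended by a fall under 40 points. Ended by one under 10 points it held 9 in RGS12 and 5 in ZNF497. Tiles of 500 bases gave 2 in RGS12 (3000 bases), 3 in SCAP (1500 bases), 4 in ZNF497 (2000 bases) and 10 in SIK1 (5500 bases), and 10 reads per tile gave 9 in RGS12. With tiles starting under 20% passed over, chosen after seeing the data, it held 27 in RGS12 and 15 in SIK1, or 28 and 25 with flanks of 500000 bases.

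Of the fitted changes of named tiles under alternatives, 225 kept their direction and call, 9 lost the call and 8 reversed, all 8 in tiles that were not called. Over passages 6 to 17 these were the SCAP tile starting at 47517001, with 3.73, that at 47470001, with -17.1 (-2.10 on log2 passage) and the ZNF497 tile at 58874001, with 0.038 points. On omission of single libraries the ranges in the SCAP tiles were -1.26 to 0.444 and -7.82 to 7.88 and, in the SIK1 tile at 44847001, -0.078 to 0.008 points. Small falls may be missed at this depth. The 14% of simulated 20-point falls that were recovered do not measure how many, since few simulated tiles changed and those had intermediate levels.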
